A study of Mus musculus with 8 samples.

Results

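The genes described here encode liver enzymes that break down amino acids, and some enzymes linked to that breakdown. The 44 member genes were given by a list of enzymes, each a step in such breakdown or linked to it. The list covered phenylalanine and tyrosine, tryptophan, histidine, the branched-chain amino acids, proline, lysine, and serine, alanine, aspartate and related compounds. All members were followed whatever their values, though the list was chosen with earlier results of these data known. A probe set annotated with exactly 1 gene symbol was found for 42 of 44, out of 18193 genes measured in all. Mut was found under its current symbol Mmut, and Acmsd and Sdsl were not analysed here. Where a gene had several probe sets, the one with the highest mean over all arrays stood for it, which was a choice to be made for 20 of the 42 genes.

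The liver is the main site of amino acid breakdown in mammals. An aminotransferase or a dedicated dehydratase or oxygenase usually opens each pathway, and the carbon skeleton is then oxidised in the mitochondrion to intermediates that feed glucose and ketone synthesis. Many of these enzymes are abundant hepatocyte proteins, and inherited loss of several of them causes human disease, such as tyrosinaemia for FAH and maple syrup urine disease for the branched-chain ketoacid dehydrogenase.

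The study compared livers of 4 MTAP+/- mice, which carry 1 intact copy of the gene, with livers of 4 MTAP+/+ mice. Mtap encodes methylthioadenosine phosphorylase, the enzyme that starts the salvage of methionine from the by-product of polyamine synthesis. All animals were male C57BL/6 mice between 92 and 101 days old, and each liver was hybridised to its own array, with no treatment given in the labels. Which part of Mtap the altered allele lacks, and whether mice shared a litter, could not be learned from the labels. The p-values rest on the spread between these animals alone. They treat the animals as independent, which could not be checked without the litters.

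The authors' values, from RMA, are log2 signals, 1 for each probe set, and small differences of dim probe sets are compressed. Differences are MTAP+/- minus MTAP+/+. P-values are from limma, with Benjamini-Hochberg adjustment over all 18193 genes where called adjusted, and errors of differences are standard errors (SE). Mtap itself lay between 6.72 and 6.99 in MTAP+/- livers, against 7.57 to 7.82 in MTAP+/+ livers, a difference of -0.80 ± 0.10 with an adjusted p of 0.0281 by limma. Hepatocyte markers such as Alb and Apoa1 were bright in every liver, with list means of 13.18 to 13.34 in MTAP+/- livers and 13.10 to 13.25 in MTAP+/+ livers over the 8 markers measured. Of 10 Kupffer cell and macrophage markers 8 were on the higher side in MTAP+/- livers, 4 of these with an unadjusted p below 0.05, where 4.4% of all genes were. The list means were 7.99 to 8.63 in MTAP+/- livers against 7.87 to 8.09 in MTAP+/+ livers. These 4 markers, Adgre1, Cd5l, Cd68 and Timd4, were each highest in MTAP+/- replicate 2. All 8 markers of other leukocytes were on the higher side, 2 with an unadjusted p under 0.05, again beside 4.4% of all genes. Of the 2, Ptprc was highest in MTAP+/- replicate 2 and Nkg7 in MTAP+/- replicate 3. The list means were 4.59 to 5.28 in MTAP+/- livers against 4.43 to 4.55 in MTAP+/+ livers. Of these 8 leukocyte markers 6 were under the median signal of all genes, Cd3g lowest at 3.01. No endothelial (8 measured), stellate and fibroblast (8) or cholangiocyte (6) marker had an unadjusted p under 0.05. Their list means were 6.59 to 6.97 in MTAP+/- against 6.56 to 6.73 in MTAP+/+ livers for endothelial, 6.79 to 6.97 in MTAP+/- against 6.70 to 7.04 in MTAP+/+ livers for stellate, and 3.95 to 4.21 in MTAP+/- against 4.02 to 4.21 in MTAP+/+ livers for cholangiocyte markers. In bulk liver, fewer cells of a type and less RNA per cell cannot be told apart. The part of these markers in the results below was not tested.

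MTAP+/- replicate 2 stood apart from the other arrays in the breakdown genes. Of the 8 livers it gave the highest value in 19 of 42 members (45.2%), against 12% of all genes. MTAP+/- replicate 1 gave the lowest value in 17 members (40.5%), against 12.1% of all genes. Signals at the 3' end of the control transcripts exceeded those at the 5' end, a measure of RNA quality, by 0.713 in MTAP+/- replicate 2 and 1.08 to 1.12 in the other MTAP+/- livers, against 0.880 to 1.04 in MTAP+/+ livers. The macrophage marker Marco was at 9.97 in that liver and at 4.73 to 6.44 in the other MTAP+/- livers, against 4.70 to 7.60 in MTAP+/+ livers. The Kupffer cell marker Clec4f was at 7.06 there and at 9.005 to 9.45 in the other MTAP+/- livers, against 8.85 to 9.13 in MTAP+/+ livers. The part of these differences in the results was not tested, and the plot of differences with and without this liver covers all 42 genes. This liver was picked out by its values in these same genes. Leaving it out therefore lowers the MTAP+/- mean of any gene in which it was highest, so fits without it are no independent support.

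No amino acid breakdown gene passed the test between the genotypes, and most fitted differences were small. No member passed an adjusted p of 0.05 by limma (0 of 42), where 0.0495% of all genes did, and the smallest adjusted p among members was 0.232. An unadjusted p under 0.05 was reached by 3 members (7.14%), all on the lower side, where 4.74% of all genes were, against 0 on the higher side, where 4.4% were. In both directions together the share was 9.14% of all genes and 13.7% of the 9097 genes at or above the median signal, which hold 41 of the 42 members. The groups did not overlap for 2 members (4.76%), both on the lower side, beside 4.64% of all genes, 2.7% on the lower and 1.95% on the higher side. In both directions together, the share with an unadjusted p under 0.05 was below the background. The share without overlap was close to that of all genes and below the 6.12% of genes at or above the median signal.

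The fitted differences had a median of -0.04, beside -0.02 over all genes, and ran from -0.66 for Prodh to 0.35 for Aadat. Of the 42 members 28 were on the lower side (66.7%), beside 54.7% of all genes. A difference under 0.2 in size was found for 31 members. For 28 of the 42 members the 95% interval of the difference lay wholly within 0.5 log2 units of 0, which is 70.7% to 141.4% of the MTAP+/+ level. For the other 14 the interval reached a difference of 0.5 units or more, and for all 42 it lay within 1 unit. Of all genes, 72.3% had an interval within 0.5 units and 97.3% within 1 unit.

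**Figure D1:**
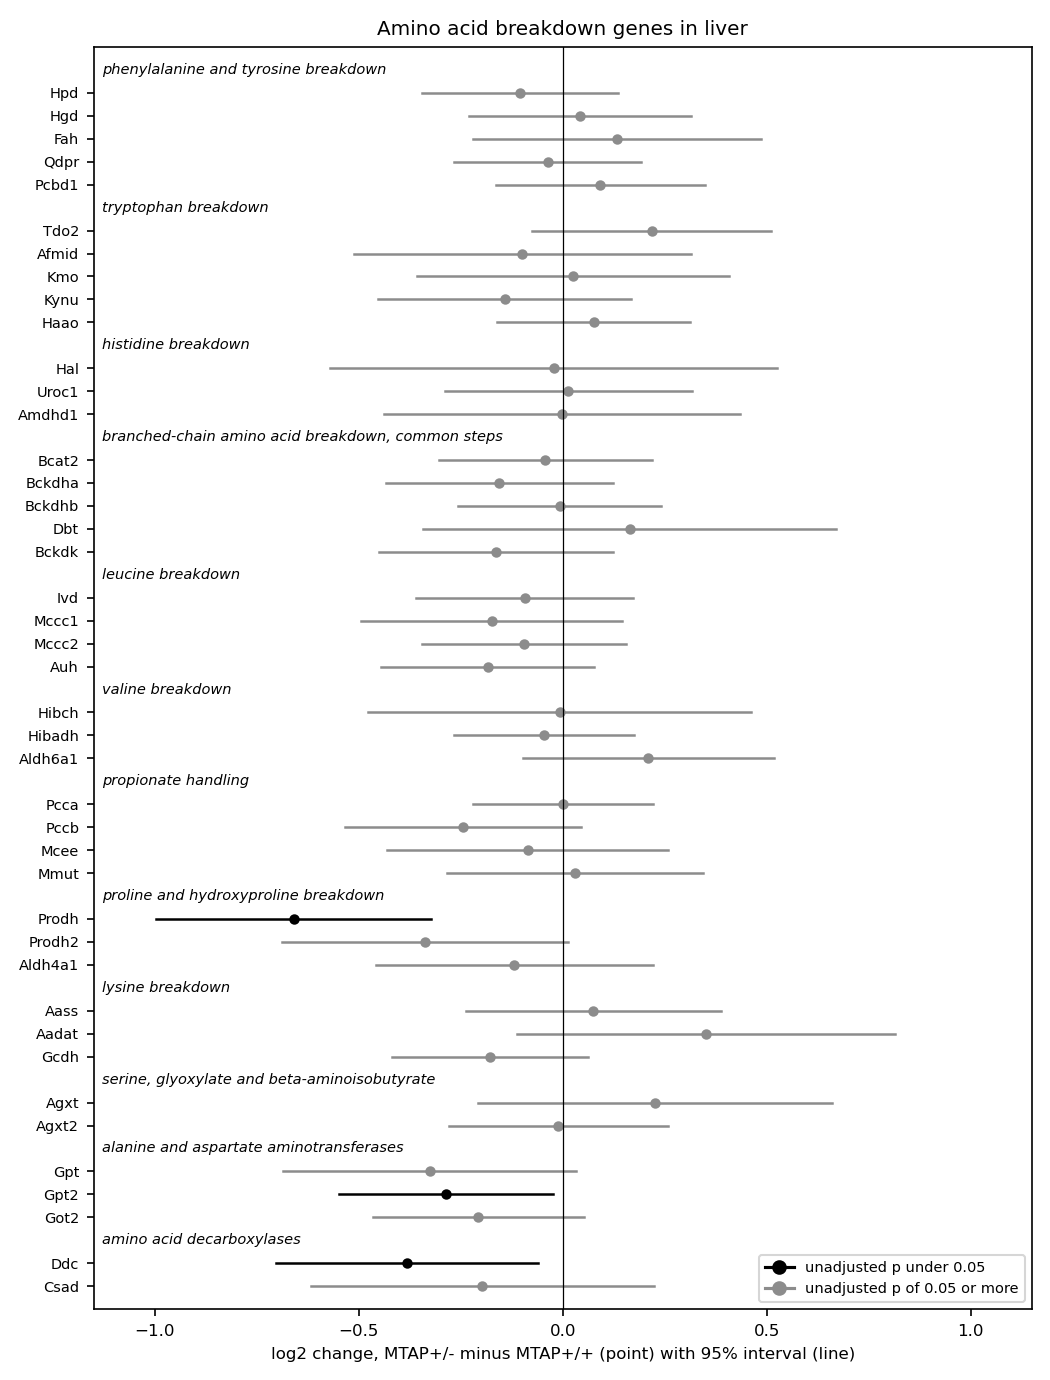
Log2 difference (MTAP+/- minus MTAP+/+, horizontal axis) of each of 42 amino acid breakdown genes with its 95% interval, grouped by pathway. The 3 members with an unadjusted p under 0.05, Prodh, Gpt2 and Ddc, are drawn in black, all at values below 0, and the interval of every other gene includes 0.

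Proline breakdown held the member with the smallest p. Prodh, proline dehydrogenase, is the mitochondrial enzyme that opens proline oxidation. Its signal was 9.18, 9.34, 9.39 and 8.79 in MTAP+/- replicates 1 to 4, against 10.08, 9.94, 9.64 and 9.69 in MTAP+/+ replicates 1 to 4. Every MTAP+/- liver lay below every MTAP+/+ liver. The means were 9.18 ± 0.27 in MTAP+/- and 9.84 ± 0.21 in MTAP+/+ livers (SD, n = 4 each), a difference of -0.66 ± 0.15, or 63.3% of the MTAP+/+ level with a 95% interval of 50.1 to 80.0%. The unadjusted p was 0.00127 by limma, which ranked 99 among all genes, and the adjusted p was 0.232, so the difference did not pass over all genes. The exact two-sided permutation p was 0.0286, the smallest that 4 against 4 allows. Without any 1 array the difference stayed between -0.73 and -0.53, and its unadjusted p was under 0.05 in all 16 alternatives tried.

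The other proline-linked members were on the same side with overlap. Prodh2, the enzyme that opens hydroxyproline breakdown, was at 8.57, 9.37, 8.89 and 8.65 in MTAP+/- replicates 1 to 4, against 9.29, 9.15, 9.2 and 9.19 in MTAP+/+ replicates 1 to 4. MTAP+/- replicate 2 was the highest of all 8 livers and the other 3 MTAP+/- livers lay below every MTAP+/+ liver. The difference was -0.34 ± 0.16 (adjusted p = 0.566 by limma), and -0.50 without MTAP+/- replicate 2 (unadjusted p = 0.000981, adjusted p = 0.148). With each array left out in turn it ran from -0.50 to -0.24, with an unadjusted p under 0.05 in 1 of 8 fits. Aldh4a1, which oxidises the shared product of proline and ornithine to glutamate, had a difference of -0.12 ± 0.15 with a 95% interval of -0.46 to 0.22, and its groups overlapped widely. Without MTAP+/- replicate 2, its highest liver, the difference was -0.26 (unadjusted p = 0.0726 by limma). The Aldh4a1 difference ran from -0.26 to -0.03 with each array left out in turn.

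The 3 alanine and aspartate aminotransferases were on the lower side. Gpt2, the mitochondrial alanine aminotransferase, which passes the amino group of alanine to form pyruvate and glutamate, was at 10.43, 10.22, 10.40 and 9.94 in MTAP+/- replicates 1 to 4, against 10.51, 10.51, 10.60 and 10.51 in MTAP+/+ replicates 1 to 4. The MTAP+/+ livers lay close together and the groups did not overlap. The means were 10.25 ± 0.22 in MTAP+/- and 10.54 ± 0.04 in MTAP+/+ livers (SD, n = 4 each), a difference of -0.29 ± 0.12, or 82.0% of the MTAP+/+ level with a 95% interval of 68.3 to 98.4%. Its adjusted p was 0.50 by limma with an unadjusted p of 0.0354, and the exact permutation p was 0.0286, the smallest possible. The difference was -0.18 without MTAP+/- replicate 4, the lowest liver, with an unadjusted p of 0.110 by limma. With each array left out in turn, the unadjusted p was under 0.05 in 2 of 8 fits. The chosen Gpt2 probe set is of a kind that can cross-hybridise. Without such probe sets the difference was -0.29 with an unadjusted p of 0.0851 by limma. Over all 16 alternatives the unadjusted p of Gpt2 was under 0.05 in 9.

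Gpt, the cytosolic alanine aminotransferase used as a blood marker of liver damage, was at 9.36, 10.16, 9.72 and 9.46 in MTAP+/- replicates 1 to 4, against 10.04, 9.91, 10.14 and 9.91 in MTAP+/+ replicates 1 to 4. MTAP+/- replicate 2 was again the highest liver, and the other 3 MTAP+/- livers lay below all MTAP+/+ livers. The difference was -0.33 ± 0.16 (adjusted p = 0.595 by limma), and -0.49 without MTAP+/- replicate 2 (unadjusted p = 0.00222, adjusted p = 0.190). With each array left out in turn it ran from -0.49 to -0.22, with an unadjusted p under 0.05 in 1 of 8 fits. Got2, the mitochondrial aspartate aminotransferase of the malate-aspartate shuttle, was at 11.51, 11.96, 11.69 and 11.49 in MTAP+/- replicates 1 to 4, against 11.87, 11.82, 11.85 and 11.94 in MTAP+/+ replicates 1 to 4. MTAP+/- replicate 2 was highest and replicates 1 and 4 were lowest, as for Gpt. The difference was -0.21 ± 0.12 (adjusted p = 0.643 by limma), and -0.31 without MTAP+/- replicate 2 (unadjusted p = 0.0132, adjusted p = 0.271). With each array left out in turn it ran from -0.31 to -0.15, with an unadjusted p under 0.05 in 1 of 8 fits.

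Of the decarboxylase members, Ddc, aromatic L-amino acid decarboxylase, which makes dopamine and serotonin and is also present in liver, was at 9.33, 9.64, 9.997 and 9.75 in MTAP+/- replicates 1 to 4. It was at 10.10, 9.92, 10.27 and 9.95 in MTAP+/+ replicates 1 to 4. MTAP+/- replicate 3 lay above MTAP+/+ replicates 2 and 4, so the groups overlapped. The means were 9.68 ± 0.28 in MTAP+/- and 10.06 ± 0.16 in MTAP+/+ livers (SD, n = 4 each), a difference of -0.38 ± 0.15 or 76.7% of the MTAP+/+ level (95% interval 61.4 to 95.8%). Its unadjusted p was 0.0237 and its adjusted p 0.453 by limma, and the exact permutation p was 0.0857. The unadjusted p was under 0.05 in 6 of the 8 fits with an array left out, with differences from -0.49 to -0.27. It was 0.0750 without MTAP+/- replicate 1 and 0.0723 without MTAP+/+ replicate 3. Averaged with its dim second probe set, Ddc differed by -0.20 (unadjusted p = 0.0827 by limma). Csad, cysteine sulfinate decarboxylase, which leads to taurine, had a difference of -0.20 ± 0.19, and its livers ranged from 9.72 to 10.68 in MTAP+/- and from 10.25 to 10.73 in MTAP+/+. Without MTAP+/- replicate 3, its lowest liver, the difference was -0.01, and over the fits with an array left out it ran from -0.34 to -0.01.

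**Figure D2:**
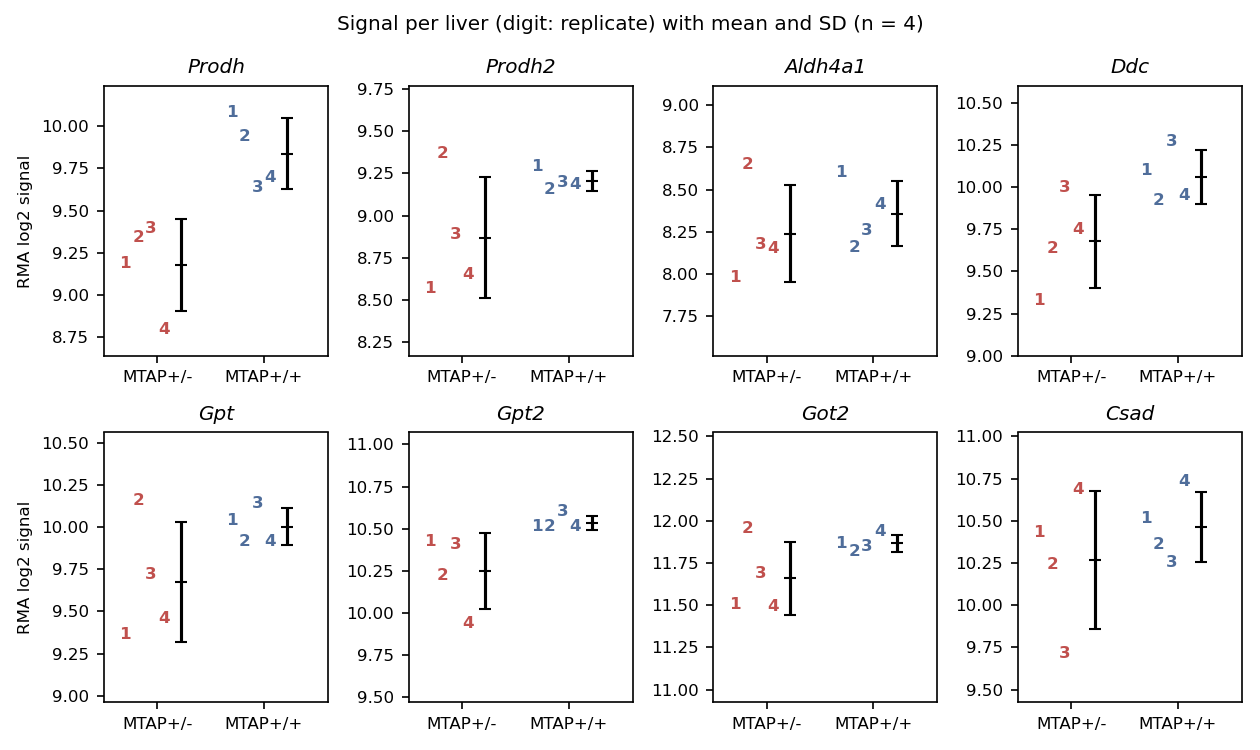
RMA log2 signal (vertical axis) of 8 genes of proline breakdown, aminotransferases and decarboxylases per liver, MTAP+/- at the left and MTAP+/+ at the right of each panel. Digits are replicate numbers and bars the mean and SD (n = 4), and MTAP+/- replicate 2 is the highest MTAP+/- liver for Prodh2, Aldh4a1, Gpt and Got2, while the groups of Prodh and Gpt2 do not overlap.

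The bases before the transcription starts of Prodh, Gpt2 and Ddc are shown because these are the 3 members with an unadjusted p under 0.05. Each run is the 250 bases before a start, 5′ to 3′, from RefSeq on GRCm38.p6, and Ddc has 2 annotated starts. Capitals mark matches on either strand to any of 5 short motifs, namely the core promoter motif TATAAA, the upstream promoter motif CCAAT, the motif GGGCGG known as the GC box, the E-box motif CACGTG and the nuclear receptor motif AGGTCA.
Prodh, chr16:18089191-18089440, minus strand: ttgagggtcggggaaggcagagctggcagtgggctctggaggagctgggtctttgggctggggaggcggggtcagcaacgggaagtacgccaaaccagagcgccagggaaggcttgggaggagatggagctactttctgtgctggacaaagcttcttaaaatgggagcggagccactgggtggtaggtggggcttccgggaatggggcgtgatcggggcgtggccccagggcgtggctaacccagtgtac
Gpt2, chr8:85492326-85492575, plus strand: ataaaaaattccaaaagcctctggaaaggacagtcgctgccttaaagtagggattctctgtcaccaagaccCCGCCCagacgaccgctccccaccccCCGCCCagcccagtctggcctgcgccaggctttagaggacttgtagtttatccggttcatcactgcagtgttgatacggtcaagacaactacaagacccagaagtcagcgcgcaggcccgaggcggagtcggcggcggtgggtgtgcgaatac
Ddc first start, chr11:11898145-11898394, minus strand: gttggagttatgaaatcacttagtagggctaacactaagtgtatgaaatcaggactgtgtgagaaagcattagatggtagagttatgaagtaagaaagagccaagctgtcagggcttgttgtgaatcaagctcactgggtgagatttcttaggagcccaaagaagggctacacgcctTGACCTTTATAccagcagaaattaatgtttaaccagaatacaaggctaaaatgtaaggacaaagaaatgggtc
Ddc second start, chr11:11890409-11890658, minus strand: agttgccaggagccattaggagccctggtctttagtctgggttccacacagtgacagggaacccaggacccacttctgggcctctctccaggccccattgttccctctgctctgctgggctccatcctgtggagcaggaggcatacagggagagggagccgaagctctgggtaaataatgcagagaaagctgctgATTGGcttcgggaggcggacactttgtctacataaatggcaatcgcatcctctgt

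The Prodh window held none of the 5 motifs. The Gpt2 window held GGGCGG in its reverse form at 179 and 153 bases before the start, the first Ddc window held AGGTCA in reverse form at 73 bases overlapping a reverse TATAAA at 68 bases before the start, and the second Ddc window held a reverse CCAAT at 55 bases. Over all 32851 windows of the same length the shares with a match were 12.4% for TATAAA, 33.8% for CCAAT, 32.7% for GGGCGG, 6.0% for CACGTG and 14.0% for AGGTCA. Of 45 windows of members, covering 38 of the 42 genes, 20%, 48.9%, 35.6%, 2.2% and 28.9% held these motifs in the same order. These are matches of letters and were not tested as binding sites.

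Phenylalanine and tyrosine breakdown showed no member past an unadjusted p of 0.05. Hpd, the dioxygenase that makes homogentisate from tyrosine's keto acid, was at 13.29, 13.66, 13.36 and 13.33 in MTAP+/- replicates 1 to 4, against 13.52, 13.43, 13.61 and 13.50 in MTAP+/+ replicates 1 to 4. The highest liver was MTAP+/- replicate 2 and the other 3 MTAP+/- livers lay below all MTAP+/+ livers, with a difference of -0.11 ± 0.11, or -0.19 without MTAP+/- replicate 2. Hgd, which opens the ring of homogentisate, differed by 0.04 ± 0.12, and Fah, which splits fumarylacetoacetate in the last step, by 0.13 ± 0.16, or 0.02 without MTAP+/- replicate 2. Qdpr and Pcbd1, which together restore the tetrahydrobiopterin cofactor of phenylalanine hydroxylase, differed by -0.04 ± 0.10 and 0.09 ± 0.12, and by -0.10 and 0.01 without that liver. Adjusted p-values of these 5 genes were 0.831 to 0.952 by limma, and none of the 95% intervals reached beyond -0.34 or 0.49. Hpd ran from -0.19 to -0.06 with each array left out in turn, Fah from 0.0005 to 0.23 and Pcbd1 from 0.01 to 0.15.

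In tryptophan breakdown the probe sets of Tdo2 disagreed in size. Tdo2, tryptophan dioxygenase, opens the kynurenine pathway in liver. The chosen probe set was at 13.15, 13.09, 13.37 and 13.20 in MTAP+/- replicates 1 to 4, against 12.65, 12.93, 13.15 and 13.21 in MTAP+/+ replicates 1 to 4, a difference of 0.22 ± 0.13 (adjusted p = 0.669 by limma). A second probe set had 11.97, 11.82, 12.18 and 12.06 in MTAP+/- livers, against 11.05, 11.24, 11.92 and 11.92 in MTAP+/+ livers, a difference of 0.47 ± 0.20 with an unadjusted p of 0.0365. The third had 11.48, 11.24, 11.59 and 11.50 in MTAP+/- livers, against 10.21, 10.57, 11.28 and 11.41 in MTAP+/+ livers, a difference of 0.59 ± 0.24 with an unadjusted p of 0.0318. In all 3, MTAP+/+ replicates 1 and 2 were the lowest livers, and MTAP+/+ replicates 3 and 4 lay within the range of the MTAP+/- livers. Neither of the other 2 probe sets passed adjustment over 45037 probe sets, of which 8.41% had an unadjusted p under 0.05, with adjusted p-values of 0.559 and 0.540 by limma. The mean of the 3 probe sets differed by 0.43 (unadjusted p = 0.0421).

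The steps after Tdo2 were closer to 0. Kmo, which hydroxylates kynurenine, differed by 0.02 ± 0.17, Kynu, which cleaves it, by -0.14 ± 0.14, and Haao, which makes the precursor of quinolinate, by 0.08 ± 0.11. Afmid, kynurenine formamidase, differed by -0.10 ± 0.19, with 9.29 to 10.21 in MTAP+/- livers and 9.47 to 9.99 in MTAP+/+ livers, and by -0.27 without MTAP+/- replicate 2. Adjusted p-values of these 4 genes were 0.820 or more by limma.

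**Figure D3:**
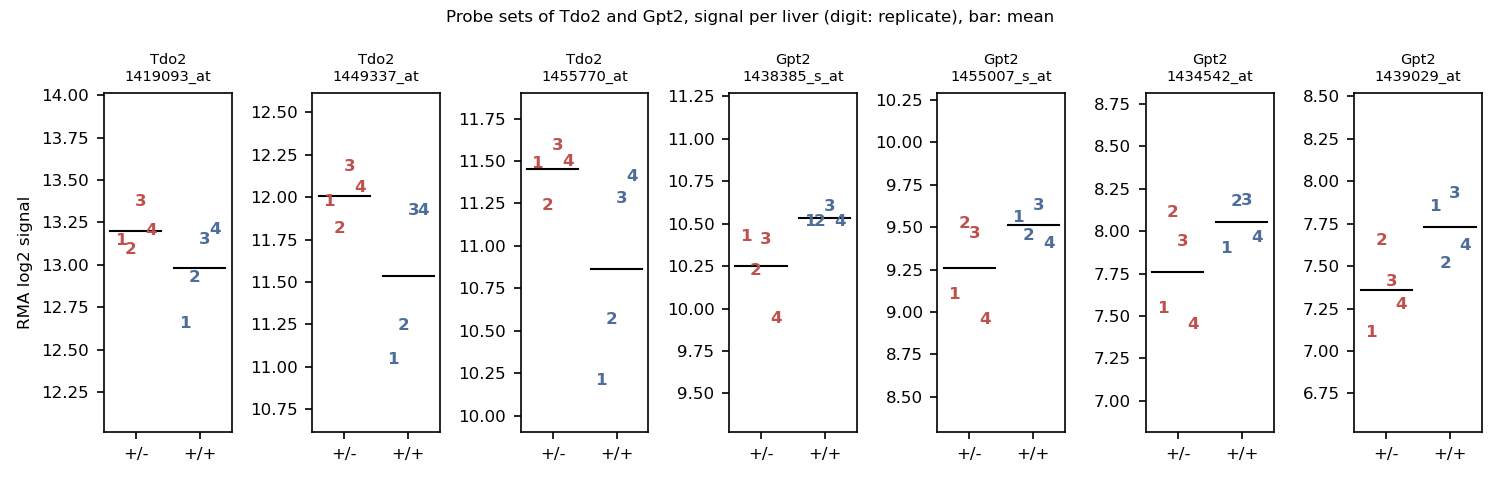
RMA log2 signal (vertical axis) of the 3 probe sets of Tdo2 and the 4 of Gpt2 per liver, MTAP+/- at the left and MTAP+/+ at the right of each panel, with digits for replicates and bars for means. The 3 Tdo2 panels differ in the size of the gap between genotypes (0.22, 0.47 and 0.59), while the 4 Gpt2 panels show gaps of -0.29, -0.25, -0.29 and -0.37.

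Probe sets of other members also differed in places. The chosen Hgd probe set differed by 0.04, and a dim second one, with a mean signal of 5.06, by 0.43 ± 0.44. Mccc1 was at -0.17 by the chosen probe set and at 0.07 by the second. The 4 of Gpt2 differed by -0.29, -0.25, -0.29 and -0.37, and the groups overlapped in the last 3, the chosen probe set being the first. A second bright Got2 probe set differed by -0.35 and a second Gpt probe set by -0.23, both on the side of the chosen ones. The other Got2 probe sets, with mean signals of 2.75 and 2.20 near the bottom of the scale, differed by -0.06 and -0.01. For Ivd the chosen probe set differed by -0.09 and the second by 0.21, so its direction depended on the probe set, with unadjusted p-values of 0.447 and 0.124 in the fit of probe sets. A second Ddc probe set was also dim, with a mean signal of 3.40 and a difference of -0.02. The chosen and second probe sets differed by -0.04 and 0.05 for Qdpr, 0.01 and -0.05 for Uroc1, and -0.10 and -0.27 for Afmid. Single probe sets were compared for members only, not for the other genes named below.

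The 3 histidine breakdown members had differences near 0 and a wide spread in MTAP+/- livers. Uroc1, urocanate hydratase, was at 9.08, 9.65, 9.29 and 9.37 in MTAP+/- replicates 1 to 4, against 9.31, 9.12, 9.54 and 9.38 in MTAP+/+ replicates 1 to 4. Hal, histidine ammonia-lyase, which opens the pathway, was at 10.10, 11.46, 10.34 and 10.66 in MTAP+/- livers, against 10.48, 10.55, 10.93 and 10.70 in MTAP+/+ livers. Amdhd1, imidazolonepropionase, was at 9.94, 10.91, 9.91 and 10.16 in MTAP+/- livers, against 10.08, 10.30, 10.22 and 10.34 in MTAP+/+ livers. All 3 genes were highest in MTAP+/- replicate 2, on average 0.60 above their means over 8 livers, and MTAP+/- replicate 1 was on average 0.37 below. The differences were -0.02 ± 0.25 for Hal, 0.01 ± 0.14 for Uroc1 and -0.0019 ± 0.20 for Amdhd1. Without MTAP+/- replicate 2 they were -0.30, -0.09 and -0.23, none with an unadjusted p under 0.05 by limma.

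Breakdown of the branched-chain amino acids begins with a transamination and the branched-chain ketoacid dehydrogenase complex. Bckdk, the kinase that switches this complex off, was at 5.72, 5.97, 6.03 and 5.84 in MTAP+/- replicates 1 to 4, against 6.29, 5.74, 6.04 and 6.14 in MTAP+/+ replicates 1 to 4. Its difference was -0.16 ± 0.13 (adjusted p = 0.765 by limma), with overlapping groups, and 0 of the 5 members of the common steps had an unadjusted p under 0.05. The complex subunits Bckdha, Bckdhb and Dbt differed by -0.16 ± 0.13, -0.01 ± 0.11 and 0.16 ± 0.23. Dbt varied most of the 3, from 9.11 to 10.05 in MTAP+/- livers and from 8.94 to 9.91 in MTAP+/+ livers. Without MTAP+/- replicate 2 its difference was -0.02 and that of Bckdha -0.25. The Bckdha difference ran from -0.25 to -0.07 with each array left out in turn. Bcat2, the mitochondrial branched-chain aminotransferase, is the sole member under the median signal of all genes (5.12), with 3.61 to 3.91 in MTAP+/- livers and 3.64 to 4.04 in MTAP+/+ livers. Liver is known to hold little of this enzyme, and without detection calls these signals do not show expression.

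The 4 leucine genes all had differences below 0, none past an unadjusted p of 0.05. Auh, the methylglutaconyl-CoA hydratase, was at 8.58, 8.73, 8.53 and 8.50 in MTAP+/- replicates 1 to 4, against 8.67, 9.07, 8.64 and 8.70 in MTAP+/+ replicates 1 to 4. MTAP+/+ replicate 2 stood above the rest, and the difference was -0.18 ± 0.12. Ivd, isovaleryl-CoA dehydrogenase, differed by -0.09 ± 0.12 (-0.19 without MTAP+/- replicate 2). The Ivd difference ran from -0.19 to -0.03 with each array left out in turn. Mccc1 and Mccc2, the subunits of methylcrotonyl-CoA carboxylase, differed by -0.17 ± 0.14 and -0.09 ± 0.11. Adjusted p-values of these 4 genes were 0.691 to 0.872 by limma.

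For valine, Aldh6a1, the methylmalonate semialdehyde dehydrogenase, was at 11.06, 10.93, 11.26 and 11.15 in MTAP+/- replicates 1 to 4, against 10.55, 10.86, 10.94 and 11.20 in MTAP+/+ replicates 1 to 4. MTAP+/+ replicate 1 was lowest and the groups overlapped, with a difference of 0.21 ± 0.14 (adjusted p = 0.706 by limma). Hibch, which releases hydroxyisobutyrate from its CoA ester, differed by -0.01 ± 0.21 and was lowest in MTAP+/- replicate 2 at 8.26, beside 8.95 to 9.23 in the other MTAP+/- livers and 8.50 to 9.13 in MTAP+/+ livers. Without that liver its difference was 0.20. Hibadh, which oxidises hydroxyisobutyrate, differed by -0.05 ± 0.10.

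Propionyl-CoA from valine, isoleucine, threonine and methionine is carboxylated and turned into succinyl-CoA. Pccb, the smaller subunit of propionyl-CoA carboxylase, was at 8.87, 9.22, 9.06 and 8.89 in MTAP+/- replicates 1 to 4, against 9.22, 9.56, 9.05 and 9.2 in MTAP+/+ replicates 1 to 4. Its difference was -0.25 ± 0.13 (adjusted p = 0.624 by limma), with an unadjusted p of 0.0883. It was -0.14 without MTAP+/+ replicate 2, the highest liver (unadjusted p = 0.254 by limma), and -0.32 without MTAP+/- replicate 2 (unadjusted p = 0.0393) or without MTAP+/+ replicate 3 (unadjusted p = 0.0451). Its partner Pcca differed by 0.0008 ± 0.10, with the 1 interval of all members that lay within 0.25 units of 0. Mmut, the vitamin B12-dependent methylmalonyl-CoA mutase, differed by 0.03 ± 0.14, and Mcee, the epimerase before it, by -0.09 ± 0.16 with MTAP+/- replicate 2 lowest at 8.21, or 0.07 without that liver.

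Lysine breakdown held the member with the highest positive difference. Aadat, the aminoadipate aminotransferase, which also acts on kynurenine, was at 10.14, 9.93, 10.83 and 10.35 in MTAP+/- replicates 1 to 4, against 9.90, 9.52, 10.10 and 10.33 in MTAP+/+ replicates 1 to 4. MTAP+/- replicate 3 was highest and MTAP+/+ replicate 2 lowest, with overlap between. The difference was 0.35 ± 0.21 (adjusted p = 0.662 by limma), and with each array left out it lay between 0.18 and 0.48. It was 0.18 without MTAP+/- replicate 3 (unadjusted p = 0.372 by limma), 0.20 without MTAP+/+ replicate 2 (unadjusted p = 0.338) and 0.48 without MTAP+/- replicate 2 (unadjusted p = 0.0423). Aass, which opens the saccharopine route, differed by 0.07 ± 0.14, and Gcdh, glutaryl-CoA dehydrogenase, by -0.18 ± 0.11.

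Of the serine and glyoxylate members, Agxt, which returns glyoxylate to glycine in the peroxisome of mouse and human hepatocytes, was at 10.93, 11.86, 11.02 and 11.53 in MTAP+/- replicates 1 to 4. It was at 10.97, 11.18, 10.93 and 11.35 in MTAP+/+ replicates 1 to 4. MTAP+/- replicates 2 and 4 were highest, and the difference was 0.23 ± 0.20 (adjusted p = 0.788 by limma), or 0.05 without MTAP+/- replicate 2. The Agxt difference ran from 0.05 to 0.36 with each array left out in turn. Agxt2, the mitochondrial enzyme that uses beta-aminoisobutyrate and dimethylarginines, differed by -0.01 ± 0.12.

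**Figure D4:**
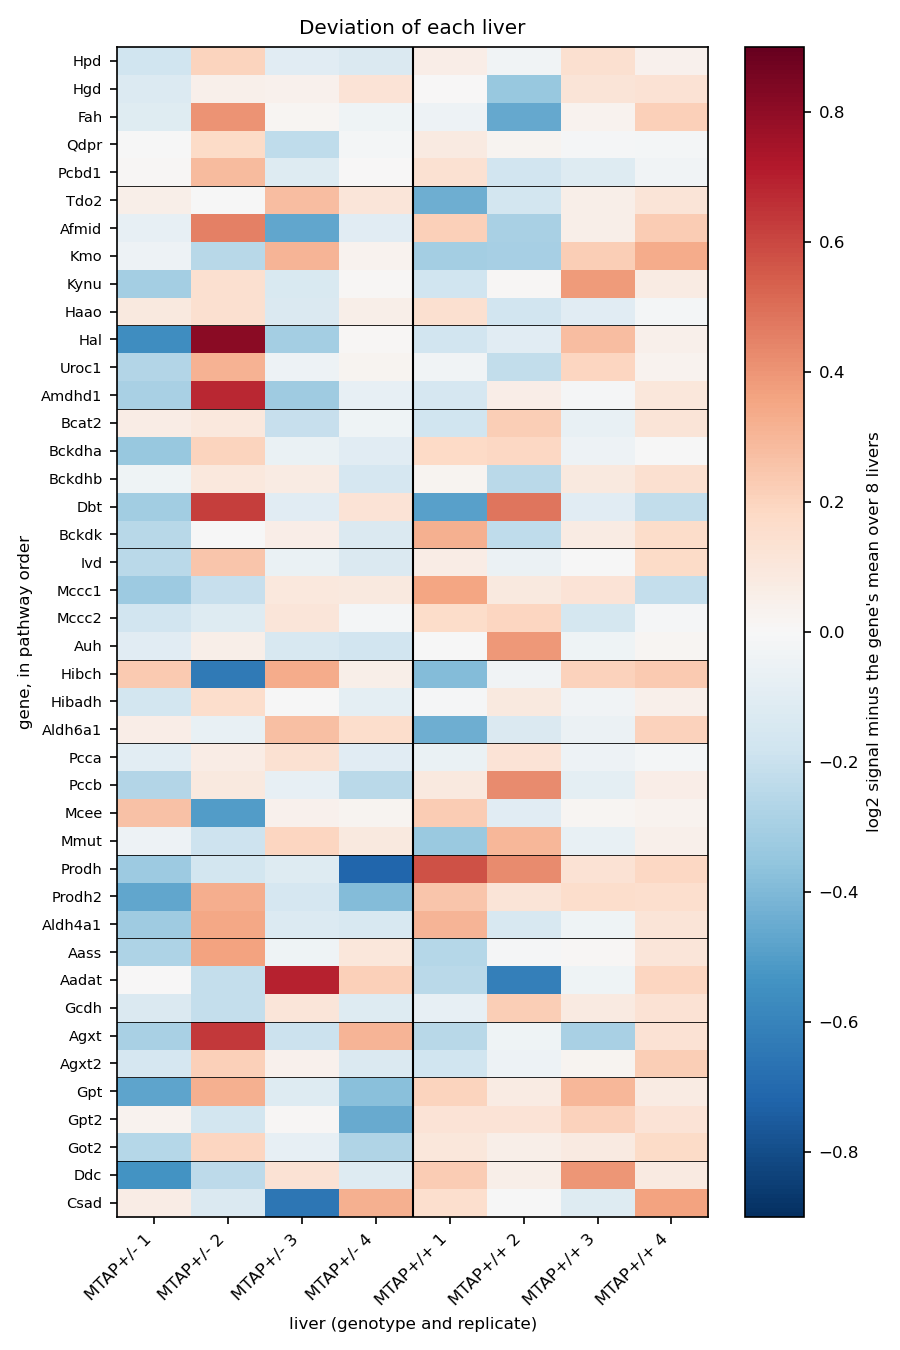
Log2 signal of each liver (columns, MTAP+/- replicates 1 to 4 left of the line and MTAP+/+ replicates 1 to 4 right) minus the mean over 8 livers, for 42 genes (rows, in pathway order). MTAP+/- replicate 2 and MTAP+/+ replicate 4 are above the mean in most rows and MTAP+/- replicate 1 below it, with exceptions such as Hibch and Mcee, which are lowest in MTAP+/- replicate 2, while Prodh is below its mean in all 4 MTAP+/- livers.

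The spread among livers was wider in MTAP+/- livers for most of these genes. The standard deviation within MTAP+/- livers exceeded that within MTAP+/+ livers for 26 members (61.9%), beside 46.6% of all genes. Its median over members was 0.216 in MTAP+/- livers and 0.176 in MTAP+/+ livers, beside medians over all genes of 0.161 in MTAP+/- livers and 0.174 in MTAP+/+ livers. The median deviation of the 42 members from their own means was 0.12 in MTAP+/- replicate 2, -0.16 in MTAP+/- replicate 1, -0.05 and -0.04 in MTAP+/- replicates 3 and 4, and -0.01 to 0.11 in MTAP+/+ livers.

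Without MTAP+/- replicate 2, 7 members (16.7%) had an unadjusted p under 0.05, where 12.2% of all genes did, 6 of them on the lower side. These were Prodh, Prodh2, Gpt, Got2, Pccb and Ddc, with Aadat on the higher side, while Gpt2 was at -0.28 with an unadjusted p of 0.0607 by limma. In the fit of all 8 livers the share was 13.7% among genes at or above the median signal and 9.14% among all genes. Neither the share among such brighter genes nor the lower-side share of all genes was counted for the fit without MTAP+/- replicate 2. None of the 42 members passed adjustment in that fit either, with a smallest adjusted p of 0.148 for Prodh2. The differences of Prodh and Ddc with this liver (-0.66 and -0.38) were close to those without it (-0.71 and -0.37).

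**Figure D5:**
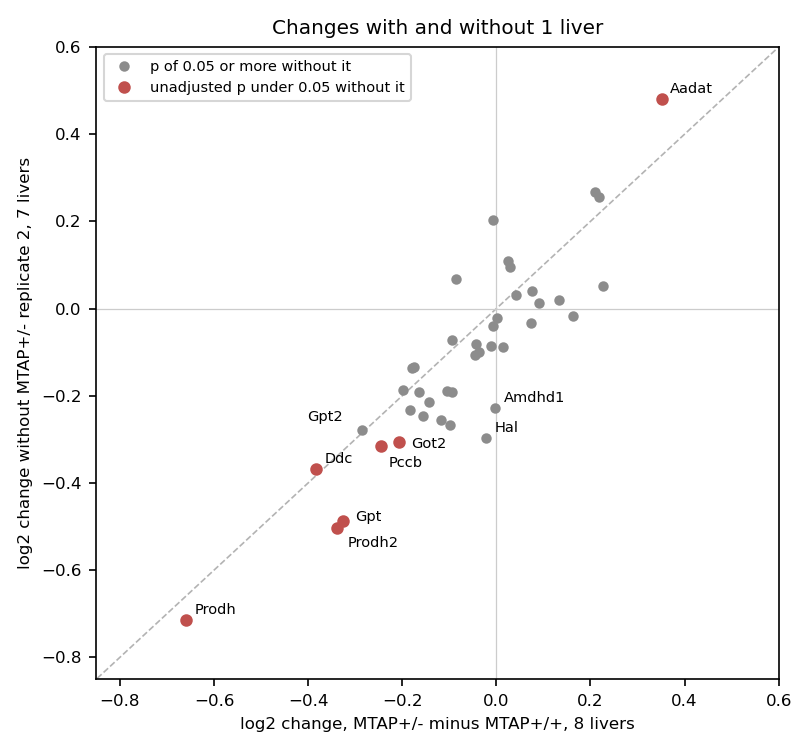
Log2 difference of each of 42 genes in the fit of 7 livers without MTAP+/- replicate 2 (vertical axis) against the fit of 8 livers (horizontal axis). The dashed line marks equal values, and red points mark the 7 genes with an unadjusted p under 0.05 without this liver, of which Prodh2 (-0.50 without it against -0.34 with it) and Gpt (-0.49 against -0.33) lie clearly below the line.

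Other genes of the same pathways were described from lists that held no member. Of 73 listed genes 63 were measured, and 36 were on the lower and 27 on the higher side. An unadjusted p under 0.05 was reached by 7 on the lower and 3 on the higher side (15.87% of the 63, beside 9.14% of all genes and 13.7% of genes at or above the median signal, which hold all but 7 of the 63), and 0 passed adjustment over all genes by limma. Without MTAP+/- replicate 2 the counts were 9 on the lower and 3 on the higher side (19% of the 63, beside 12.2% of all genes). The share among genes at or above the median signal was not counted for that fit. In the tetrahydrobiopterin and tyrosine list 0 of 6 had an unadjusted p under 0.05, with Gch1 at -0.08, Pts at -0.04 (0.05 without MTAP+/- replicate 2) and Tat, the tyrosine aminotransferase, at 0.07 (-0.14 without that liver). In the tryptophan list 0 of 6 did, with Kyat1, a kynurenine aminotransferase, at 0.42 (0.16 without MTAP+/- replicate 2, its highest liver), and Ido1 and Ido2 at -0.09 and -0.06. Pts ran from -0.09 to 0.05 with each array left out in turn, Tat from -0.14 to 0.26 and Kyat1 from 0.16 to 0.54.

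Of 14 further branched-chain and propionate genes 2 on the lower and 1 on the higher side had an unadjusted p under 0.05, where 4.74% and 4.4% of all genes did. Ppm1k, the phosphatase that switches the ketoacid dehydrogenase complex on and so opposes Bckdk, was at 10.37, 9.82, 10.51 and 10.43 in MTAP+/- replicates 1 to 4, against 9.04, 9.42, 9.72 and 10.18 in MTAP+/+ replicates 1 to 4. MTAP+/+ replicate 4 lay above MTAP+/- replicate 2, and the difference was 0.69 ± 0.23 (adjusted p = 0.383 by limma). Mmab and Mmaa, which make and load the vitamin B12 cofactor of the mutase Mmut, differed by -0.48 ± 0.14 (adjusted p = 0.317) and -0.46 ± 0.16 (adjusted p = 0.420). Among 11 lysine, proline and electron-transfer genes, Etfb, a subunit of the flavoprotein that takes electrons from Ivd and Gcdh, was at 11.22 to 11.38 in MTAP+/- livers against 11.49 to 12.08 in MTAP+/+ livers. Its groups did not overlap and the difference was -0.47 ± 0.14 (adjusted p = 0.336 by limma). Hykk, the hydroxylysine kinase, differed by 0.55 ± 0.17 (adjusted p = 0.336 by limma), and Aldh7a1, of the pipecolate route of lysine, by -0.19 ± 0.13, or -0.31 without MTAP+/- replicate 2 (unadjusted p = 0.0151 by limma). The Aldh7a1 difference ran from -0.31 to -0.11 with each array left out in turn.

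Of 16 genes of serine, glycine, cysteine, glutamate and neighbouring amino acids 3 had an unadjusted p under 0.05, all on the lower side and without overlap. Of all genes, 4.74% had such a p on the lower side by limma, and 2.7% were lower without overlap. In either direction 13.7% of genes at or above the median signal had such a p and 6.12% did not overlap. Gldc, the decarboxylase of the glycine cleavage system, was at 7.72 to 8.75 in MTAP+/- livers against 8.81 to 9.02 in MTAP+/+ livers, a difference of -0.70 ± 0.20 (adjusted p = 0.310 by limma). Cdo1, cysteine dioxygenase, which supplies the substrate of Csad, was at 11.78 to 11.88 in MTAP+/- livers against 11.99 to 12.36 in MTAP+/+ livers, a difference of -0.27 ± 0.11 (adjusted p = 0.460 by limma; unadjusted p = 0.0264, or 0.0516 without MTAP+/- replicate 2). Asrgl1, an asparaginase, differed by -0.41 ± 0.16 (adjusted p = 0.455 by limma).

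Among 10 regulators of amino acid breakdown, Ppara, the fasting-responsive nuclear receptor, was at 9.53 to 10.18 in MTAP+/- livers against 9.04 to 9.70 in MTAP+/+ livers, a difference of 0.58 ± 0.17 (adjusted p = 0.336 by limma). Creb3l3, a liver transcription factor cleaved under stress, differed by -0.28 ± 0.12 (adjusted p = 0.513 by limma; unadjusted p = 0.0381, or 0.0781 without MTAP+/- replicate 2), and Klf9 by 0.30 ± 0.16 (adjusted p = 0.613).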

How the data were processed

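The deposited table holds log2 signals of 45101 probe sets for 8 livers, made by the authors with RMA per the submitters' processing notes. For RMA no version could be learned from the labels. The scale was read from the values, 1.64 to 14.7 with array medians of 3.92 to 3.98. Precision is limited by 4 arrays per group, and no detection calls were used. The 64 control probe sets were left out, and 34945 probe sets carried 1 symbol (932 several, 9160 none), giving 18193 genes.

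Values were used as deposited in limma 3.58.1 (lmFit and eBayes, two-sided, R 4.3.3), fitting genotype alone, with Benjamini-Hochberg adjustment over all genes at 0.05. Exact permutation tests covered the 70 assignments of 4 against 4. In simulated data for this comparison (18193 genes, 20 runs) 200 genes were changed by 0.5, 1, 1.5 or 2 units. Of genes changed by 0.5 units 30.4% were recovered, and of those changed by 1 unit 95.6%. The simulated noise was independent between genes and livers, with no liver that stood apart. Only 9 genes passed adjustment in the deposited data, so these shares may be too high for them. Per-liver values are given for members with an unadjusted p under 0.05 or without overlap, and for the member of smallest p in the other pathway groups; some further members were picked after their values were seen. Up to 3 genes of smallest p are named per list of other genes. Members and lists were chosen with earlier results of these data known. Promoters came from RefSeq on GRCm38.p6.

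The alternatives were another choice of probe set, filters, spread models, array weights, normalizations, the replicate block and each array left out.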

Additional observations from a re-analysis of the deposited data

Results flagged for a closer look

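Of 84 groups of 4 livers, the highest or lowest value of 2 stood apart from the other 3 by more than 0.829 of the group's range, where chance gives about 1 in 20 groups. Auh was at 9.069 in MTAP+/+ replicate 2, beside 8.64 to 8.70 in the other MTAP+/+ livers. Gpt2 was at 10.60 in MTAP+/+ replicate 3, beside 10.51 to 10.52 in the others, a small distance in a very tight group.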

How the results depend on the processing

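No member passed an adjusted p of 0.05 by limma under any of 16 alternatives (0 each, smallest adjusted p 0.148). The 4 livers per group limit what can be called, as the wide intervals show. The count of members with an unadjusted p under 0.05 by limma, 3 as reported, was 6 with array weights. It was 2 to 7 with each array left out, 7 being without MTAP+/- replicate 2. The share of all genes with an unadjusted p under 0.05 was 11% with array weights. It was 6.27% to 12.2% with each array left out, 12.2% being without MTAP+/- replicate 2. Genes past an adjusted p of 0.05, out of all genes tested, numbered 2 to 20 over the alternatives. With the replicate number as a block 4 members had an unadjusted p under 0.05 and 0 passed adjustment; same-numbered livers did not deviate together (correlations -0.104, 0.146, 0.03 and 0.142), so the numbers were not taken as pairs. The median difference of members lay between -0.1037 and -0.0377. Of 666 member values 587 kept direction and side of 0.05, 14 came under it, 10 left it and 55 changed sign, in 18 members whose reported difference was at most 0.16 in size; the cause was not tested. With each array left out the lowest and highest values were -0.0654 and 0.0925 for Hgd, -0.1006 and 0.0314 for Qdpr, -0.2667 and 0.0407 for Afmid, -0.0746 and 0.1399 for Kmo, -0.2966 and 0.1596 for Hal, -0.0879 and 0.1025 for Uroc1, -0.2287 and 0.1047 for Amdhd1, -0.1097 and 0.0224 for Bcat2, -0.089 and 0.0404 for Bckdhb, -0.0173 and 0.3522 for Dbt, -0.1397 and 0.2036 for Hibch, -0.1069 and 0.0007 for Hibadh, -0.0441 and 0.042 for Pcca, -0.1894 and 0.067 for Mcee, -0.0766 and 0.1334 for Mmut, -0.0329 and 0.1791 for Aass, and -0.0852 and 0.06 for Agxt2. Averaging the probe sets of each gene, Qdpr was at 0.006, Uroc1 at -0.0178, Ivd at 0.056 and Pcca at -0.0416. Without cross-hybridising kinds of probe set Qdpr was at 0.0495 and Uroc1 at -0.0489. With array weights Hgd was at -0.0102, Uroc1 at -0.0855, Hibch at 0.0637 and Aass at -0.0077. With renewed quantile normalization Hal was at 0.0098, Amdhd1 at 0.0139, Hibch at 0.0001 and Pcca at -0.0021, and with median centring Uroc1 was at -0.005 and Pcca at -0.0176.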
